A study of Mus musculus with 12 samples.

Results

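Primary vascular smooth muscle cells labelled as TIGAR knockout were compared with wild-type cells after 6 h with the growth factor PDGF-BB (40 µg/L) in both. The comparison holds 6 of the 12 poly(A) RNA libraries of the series, 3 of each genotype label, and was made over the 14202 of 55487 genes that reached 1 CPM (counts per 1000000 counted reads) in at least 3 of the 12 libraries. The other 6 libraries are untreated cells of the same genotype labels, 3 of each, and enter as a second, separate comparison. The donors of the cells were mice aged 4 to 6 weeks, and cells were used at passages 4 to 6, in medium with serum, and none of the groups differs from another by anything else that the labels name. The labels give no strain, no sex, no knockout allele and no vessel, and nothing in them tells if replicates stem from different animals or cultures, so p-values reflect only how these samples spread. In what follows, "wild-type" and "labelled knockout" mean the treated libraries unless untreated cells are named.

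TIGAR is an enzyme that breaks down fructose bisphosphates, which lowers flux through glycolysis and leaves more glucose for the pentose phosphate pathway, the main cytosolic source of NADPH. PDGF-BB binds PDGF receptors on smooth muscle cells and turns them from a contractile state, with high levels of actin, myosin and calponin, towards a state of growth, migration and matrix turnover. Glycolytic enzymes, early transcription factors such as Jun and ribosome biogenesis genes are among the genes that growth factors are known to raise in such cells.

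Tigar mRNA did not fall under the knockout label. It stood at 11.5, 11.5 and 12.6 CPM in the 3 wild-type libraries and at 14.6, 14.7 and 16.2 CPM in the 3 labelled knockout libraries, a log2 difference of 0.33 (SE 0.11, adjusted p = 0.0292). The groups did not overlap, and the call held in 14 of 19 alternative analyses. The value is 1 sum over the exons of Tigar on chromosome 6, and the labels do not say which exons the allele removes, so the level does not check the label, and each direction below is by label. Library totals ran from 14953807 to 21698488 reads over the series. Replicate 1 of wild-type stood apart: its log2 distance (root mean square over genes) from the mean of the other 2 libraries of its group was 0.416, against 0.143 to 0.293 for the other 11 libraries. It moved with transcript length: the Spearman correlation between exon length and the log2 difference across genes was 0.256 with this library, 0.0155 without it and 0.00122 in untreated cells, where genes are not independent replicates. The count of all genes called is therefore given with and without it below, and so are the counts of some of the lists.

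**Figure D1:**
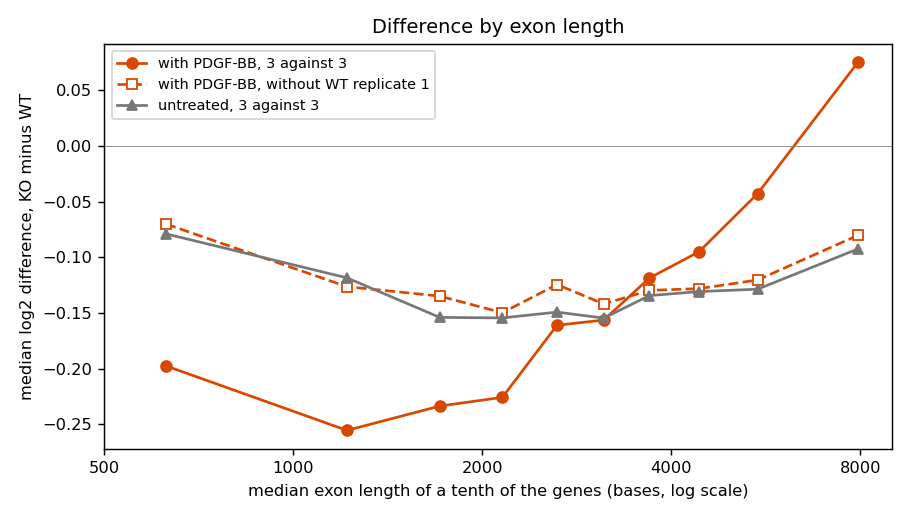
Median log2 difference, labelled knockout minus wild-type, on the y axis against exon length on a logarithmic x axis, for the 14202 genes in 10 bins of near-equal size, each point being 1 bin. With PDGF-BB the median ran from -0.20 in the bin of shortest genes to 0.075 in the longest, and without wild-type replicate 1 the points lie between -0.15 and -0.070, close to those of untreated cells.

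At an adjusted p under 0.05, 5284 genes were called, 37.2% of those tested, of which 1507 (10.6%) were higher and 3777 (26.6%) lower in labelled knockout. Without wild-type replicate 1 the counts were 5909 genes (41.6%), 1690 (11.9%) higher and 4219 (29.7%) lower. The split by direction depended on scaling: 28.5% of calls were higher with the deposited CPM, 47.4% with TMM scaling (1928 higher or 13.6% of genes, 2139 lower or 15.1%, 28.6% in all), 49.1% with quantile normalization, 45.8% with edgeR and 50.6% with DESeq2. The median over all genes was -0.144 on the log2 scale and shifted to -0.0496 with TMM scaling. Small differences are therefore to be read against that median. In 13.6% of genes all 3 labelled knockout libraries lay above all 3 wild-type ones, and in 35.9% below them. The shift leaves the large differences in place. All of the 671 genes called with at least a 2-fold difference (4.72% of genes tested, 381 or 2.68% higher and 290 or 2.04% lower) were called in the same direction with TMM scaling and without wild-type replicate 1.

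The gene with the largest difference of all those named was Angptl7, a secreted angiopoietin-like protein (ENSMUSG00000028989, chromosome 4, 148495183 to 148500460 in GRCm38). It was counted at 1234, 1157 and 1164 CPM in wild-type and at 16.1, 13.96 and 16.1 CPM in labelled knockout. The libraries of a group lay close together and the groups far apart. The log2 difference was -6.18 (SE 0.07, adjusted p = 3.49e-15), and in untreated cells it was -5.37.

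The next largest falls were in Scara5, Comp and Chrdl1. Scara5, a ferritin receptor found on adventitial fibroblasts, was at 104, 107 and 112 CPM in wild-type and 9.03, 8.12 and 7.996 CPM in labelled knockout (log2 -3.53). Comp, a cartilage matrix protein also made by smooth muscle (ENSMUSG00000031849, chromosome 8, 70373558 to 70382066 in GRCm38), went from 222, 187 and 174 to 19.2, 16.8 and 17.6 CPM (log2 -3.36, SE 0.15). Chrdl1, an antagonist of BMP ligands, was at 53.9, 60.2 and 66.6 CPM against 7.01, 5.204 and 6.37 CPM (log2 -3.09). In each of these the groups lay far apart and the libraries of a group close together. Among further falls were the G protein signalling regulator Rgs2 (log2 -2.93), C1qtnf3 (-2.79), the Wnt amplifier Rspo3 (-2.75), the receptor for the peptide PACAP, Adcyap1r1 (-2.64), the lysophosphatidic acid-producing enzyme autotaxin, Enpp2 (-2.59), the selenium-binding protein Selenbp1 (-2.54), the glycogen-targeting phosphatase subunit Ppp1r3c (-2.54), osteopontin, Spp1 (-2.46), and lysozyme, Lyz2 (-2.40). An annotated exon on the other strand lies over 13.1% of the exon length of Rspo3, and another gene on the same strand over 18.8% of that of Spp1, and the strand setting of the counting is not given in the sources used here, so reads of such partners cannot be told apart.

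The largest rises were mostly in genes of vascular endothelium. Ptprb, the vascular endothelial tyrosine phosphatase (ENSMUSG00000020154, chromosome 10, 116275523 to 116389535 in GRCm38), was at 7.65, 14.7 and 16.7 CPM in wild-type and 154, 152 and 155 CPM in labelled knockout. Its log2 difference was 3.53 (SE 0.20, adjusted p = 2.74e-08) and 3.22 without wild-type replicate 1, the lowest of the wild-type libraries. Edn1, the vasoconstrictor endothelin, was at 7.05, 8.11 and 6.19 CPM against 74.8, 75.7 and 79.4 CPM (log2 3.26), and Cdh5, the cadherin of endothelial junctions, at 16.03, 23.7 and 22.7 CPM against 165, 173 and 159.7 CPM (2.95). Adgrf5 (3.20), Pecam1 (2.92), Ctla2a (2.92), Cd93 (2.89), Emcn (2.87), von Willebrand factor, Vwf (2.73), and Myct1 (2.72) had log2 differences of the sizes in parentheses, and so had Klhl6 (2.80). Ctla2a has a close copy next to it, so its reads may be split.

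Of the large rises outside that set, 3 were in matrix and morphogen genes. Acan, the large proteoglycan aggrecan (ENSMUSG00000030607, chromosome 7, 79053483 to 79115099 in GRCm38), was at 51.8, 70.9 and 75.3 CPM in wild-type and at 687, 668 and 625 CPM in labelled knockout (log2 3.32, SE 0.11). Bmp6, a BMP ligand, went from 8.26, 8.04 and 8.52 to 79.5, 89.3 and 84.6 CPM (3.20), and Sfrp1, a secreted Wnt antagonist, from 16.3, 18.9 and 19.3 to 139, 138 and 148 CPM (2.90). In all 3 the lowest labelled knockout library lay far above the highest wild-type one.

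**Figure D2:**
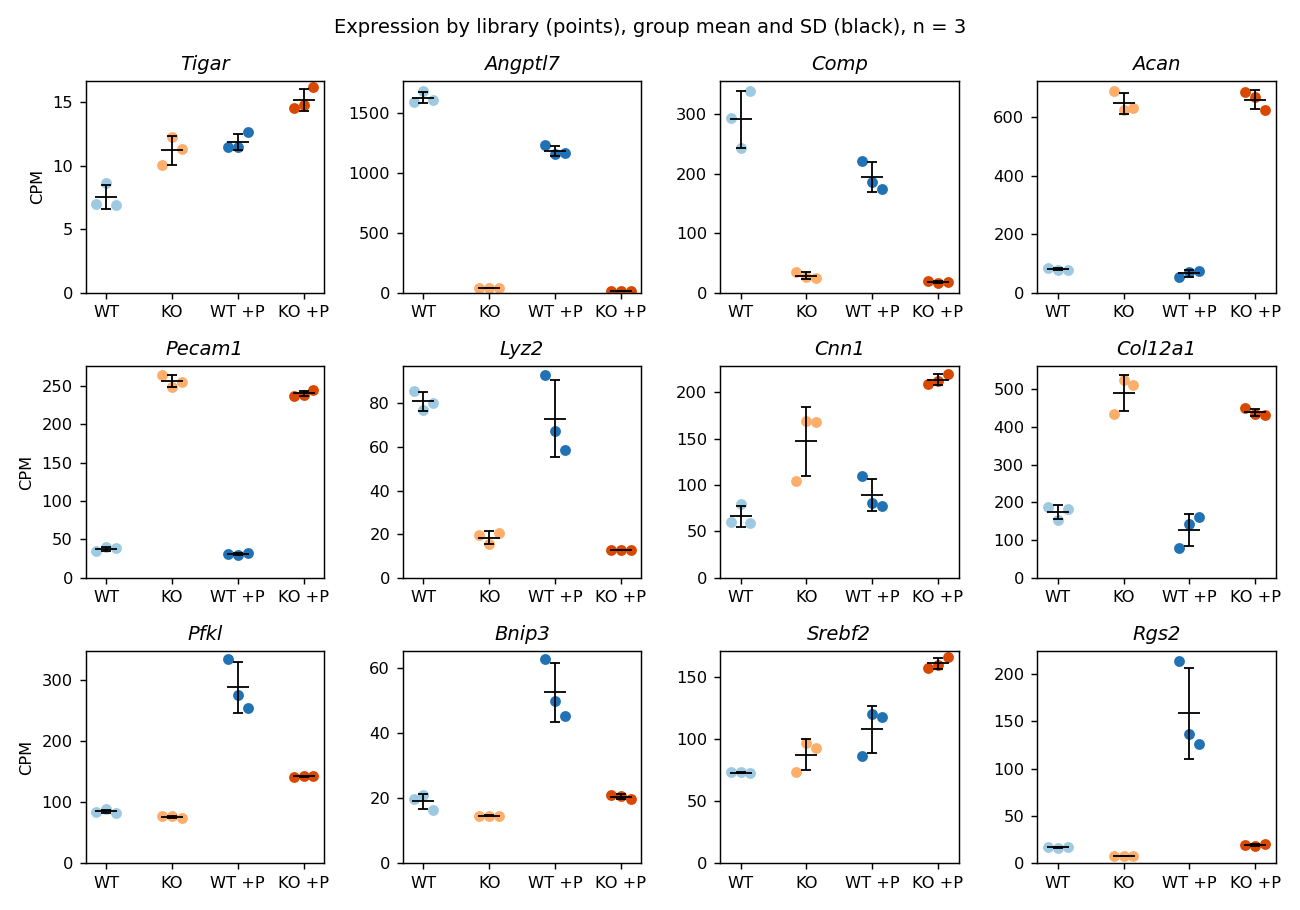
CPM (linear y axis) of 12 genes in the 4 groups of 3 libraries, WT for wild-type, KO for labelled knockout and +P for PDGF-BB, points being libraries and black marks the group mean with its SD. Tigar is not lower under the knockout label, and Angptl7, Comp and Lyz2 are low and Acan and Pecam1 high in labelled knockout with and without PDGF-BB. Pfkl, Bnip3 and Rgs2 differ more between the genotype labels with PDGF-BB than without it. Rgs2 (log2 -1.09) and Bnip3 (-0.36) were also called lower in untreated labelled knockout.

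A few genes were present under 1 label only, by the rule of at least 1 CPM in all 3 libraries of a group and at most 3 reads in each library of the other. Tspan11, a tetraspanin, had 39, 41 and 41 reads in the wild-type libraries and 3, 1 and 3 in labelled knockout. Il1rapl1, a relative of the interleukin 1 receptor accessory protein gene, had 17, 17 and 20 against 2, 0 and 0. The other 4 were seen in labelled knockout: Rassf9 with 1, 3 and 1 reads against 45, 38 and 31, Gvin1 with 1, 2 and 3 against 38, 29 and 27, Serpina3g with 3, 2 and 1 against 26, 26 and 20 and the GTPase gene Gimap8 with 2, 2 and 1 against 22, 29 and 18. Serpina3g and Gvin1 belong to clusters of close copies, so their counts are uncertain.

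The labelled cell type was checked first against contractile genes. All 23 contractile genes listed had reads. Acta2, smooth muscle actin, was at 1298 ± 237 CPM in wild-type and 2578 ± 40.9 CPM in labelled knockout (mean ± SD, n = 3), and Myh11, the myosin heavy chain of smooth muscle, at 35.9 ± 6.89 and 53.04 ± 2.06 CPM. Tagln, usually an abundant transcript of smooth muscle, was at only 4.302 ± 1.32 and 6.93 ± 0.152 CPM, and Des, desmin, was under the level for testing. Both labels thus carry smooth muscle genes, with Tagln and Des near the floor in both.

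Markers of other cell types moved with the label. Of 17 endothelial markers tested, 16 were higher in labelled knockout and none lower, beside 10.6% of all genes called higher, and their median log2 difference was 2.25 beside -0.144 over all genes. The counts were the same without wild-type replicate 1. Summed over all 18 markers, the level ran from 286 to 324 CPM in wild-type and from 997 to 1020 CPM in labelled knockout, and none of the markers was at 0 in all libraries of a group. Pecam1 was at 31.6, 29.05 and 32.1 CPM in wild-type against 237, 238 and 244 CPM, Vwf at 2.49, 2.46 and 2.39 against 19.2, 24.1 and 22.5 CPM and Emcn, endomucin, at 9.72, 9.24 and 6.87 against 65.9, 67.5 and 73.1 CPM. The endothelial sums did not overlap in untreated cells either, at 328 to 339 CPM in wild-type and 1016 to 1132 CPM in labelled knockout. In bulk RNA, fewer cells of a type and less RNA per cell cannot be told apart.

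Macrophage and leukocyte markers went the other way, with 12 of 14 lower and none higher beside 26.6% of all genes called lower. Their median was -1.08, and 13 were lower without wild-type replicate 1. Lyz2 was at 93.04, 67.5 and 58.6 CPM against 12.5, 12.9 and 12.8 CPM, Adgre1, which codes for the macrophage antigen F4/80, at 10.1, 11.5 and 10.3 against 2.49, 1.7996 and 1.75 CPM (log2 -1.96), and C1qa, a subunit of complement C1q, at 14.2, 8.37 and 7.54 against 2.17, 2.09 and 1.499 CPM (-1.88). The lysosomal leukocyte protein Laptm5 had a log2 difference of -1.41. The sum over the 17 markers was 124 to 175 CPM in wild-type and 38.8 to 42.6 CPM in labelled knockout. Ptprc, the pan-leukocyte antigen CD45, was at 2.26 ± 0.356 and 2.06 ± 0.383 CPM and was not called (adjusted p = 0.642).

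Other cell markers were split. Of 15 adventitial fibroblast markers tested, 4 were higher and 7 lower. Scara5 and Penk, the enkephalin precursor (log2 -2.05), fell, while Col14a1 (2.59) and the Wnt antagonist Sfrp2 (1.40) rose, and the sum was 2884 to 3070 CPM in wild-type against 4054 to 4202 CPM in labelled knockout. Pericyte markers had 4 higher and 4 lower of 8, with Rgs5 at 412, 429 and 447 CPM against 952, 967 and 981 CPM (log2 1.17), Anpep at 0.83, Cox4i2 at -1.82 and Ndufa4l2 at -1.03. The sign of the median of that list changed between alternatives. Of Schwann and neural markers, S100b (log2 -1.80) and Cdh19 (-0.84) fell and the tubulin Tubb3 (1.02) rose among 5 tested. Adipocyte markers (5 tested) had Lpl (-1.09), Pparg (-0.48) and Plin4 (-0.42) lower and Fabp4 (0.77) higher. Of 4 epithelial and mesothelial markers tested, the keratin Krt18 rose (2.11) and Upk1b fell (-0.57), and of 5 striated muscle markers the skeletal actin Acta1 rose (1.38). The endothelial and macrophage sums moved with the genotype label in the same libraries as each group of genes below, and their part in those results was not tested.

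Contractile genes were higher in labelled knockout with PDGF-BB. Of 22 tested, 16 were called higher and none lower, beside 10.6% of all genes called higher, with a median log2 difference of 0.59 beside -0.144 over all genes. For this and each list below, a count near the share of all genes (10.6% higher, 26.6% lower) is not a result about the list. Without wild-type replicate 1 it was 18 of 22, and with TMM scaling 19 of 22. Cnn1, calponin, which binds actin and myosin, stood at 109.6, 80.6 and 77.6 CPM in wild-type and 209, 212 and 219.7 CPM in labelled knockout (log2 1.27, SE 0.18, adjusted p = 0.000114). The highest wild-type library, replicate 1, still lay far below all labelled knockout libraries. Mylk, the kinase that starts contraction by phosphorylating myosin light chain, was at 9.899, 16.7 and 14.3 against 30.7, 27.9 and 27.3 CPM (1.04), and the leiomodin Lmod1 at 87.3, 80.3 and 73.6 against 168, 162 and 163 CPM (1.03). Ldb3, a protein of actin anchorage sites, differed by 1.10. In Mylk and Ldb3 replicate 1 was the lowest of the wild-type libraries and in Cnn1 and Lmod1 the highest. The summed level of the 23 genes was 5443 to 6107 CPM in wild-type and 9052 to 9248 CPM in labelled knockout. In untreated cells 11 of 22 were called higher and none lower, with sums of 7218 to 8172 CPM against 7728 to 9979 CPM, which overlap.

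Promoters of contractile genes often hold CArG boxes, the motif bound by serum response factor. A CArG box was found in the bases upstream of the start of 5 of the 17 tested contractile genes with a RefSeq promoter (29.4%), on either strand, within 250 bases, beside 1.62% of all 27025 genes with one and 1.40% of the tested genes. Of the called genes among these 5, Vcl, which codes for the adhesion protein vinculin, and Myl9, the regulatory myosin light chain, have the box in a stretch of 120 bases outside annotated exons, shown from RefSeq on GRCm38.p6 with the box in capitals.
Vcl: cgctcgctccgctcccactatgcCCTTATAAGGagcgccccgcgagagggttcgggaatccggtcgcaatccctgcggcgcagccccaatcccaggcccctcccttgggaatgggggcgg
Myl9: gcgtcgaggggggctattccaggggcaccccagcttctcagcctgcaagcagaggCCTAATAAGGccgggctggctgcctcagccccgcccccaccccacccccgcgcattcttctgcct
The stretch of Vcl is chr14:20929148-20929267 on the plus strand and that of Myl9 chr2:156775248-156775367 on the plus strand. Vcl was at 527 ± 167 CPM in wild-type and 1007 ± 22.8 CPM in labelled knockout (log2 0.99), and Myl9 at 176 ± 40.5 and 336 ± 6.55 CPM (0.95). A match is a description of the sequence only.

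Collagen genes were mostly higher. Of 21 fibrillar and network collagens tested, 15 were higher, beside 10.6% of all genes, and 5 lower, which is near the 26.6% of all genes called lower. Their median was 0.65, and the same counts were found without wild-type replicate 1. Col14a1, which decorates collagen fibrils, was at 117, 139.98 and 152 CPM in wild-type and 813, 840.2 and 811 CPM in labelled knockout (log2 2.59, SE 0.10, adjusted p = 7.84e-10). Col15a1, a basement membrane-associated collagen, was at 38.1, 47.3 and 48.98 against 267, 249.6 and 261 CPM (2.51), and Col12a1, another fibril-associated collagen, at 79.9, 143 and 161 against 449, 434 and 433 CPM (1.83, or 1.53 without wild-type replicate 1). Col10a1 differed by 1.37. The 5 that fell were Col6a1 (log2 -0.61), Col6a2 (-0.68), Col6a3 (-1.32), Col8a2 (-0.65) and Col16a1 (-0.50), which include all 3 chains of collagen VI measured. These 5 were named after their values were seen.

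Elastic fibre genes had 9 higher and 3 lower of 21. Eln, elastin itself, stood at 3845, 3284 and 3231 CPM in wild-type and 9453, 9528 and 9395 CPM in labelled knockout (log2 1.46). Ltbp2, a microfibril-binding protein, went from 155, 214 and 224 to 717, 699 and 695 CPM (1.85), and the fibrillin Fbn2 from 3.04, 5.25 and 4.72 to 12.7, 11.6 and 11.7 CPM (1.31). Efemp1, a fibulin, was lower, at 673, 539.97 and 558 against 264, 246 and 253 CPM (-1.21). In elastin and Ltbp2 the lowest labelled knockout library lay well above the highest wild-type one.

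Proteoglycans and matricellular proteins were divided, with 7 higher and 13 lower of 30, and the sign of their median, -0.12, changed between alternatives. Without wild-type replicate 1, 8 were higher and 15 lower, with a median of -0.39. Besides aggrecan and Comp, Ogn, the small leucine-rich proteoglycan osteoglycin, was at 1719.8, 1584 and 1656 CPM against 407, 409 and 394 CPM (log2 -2.03) and Hapln1, the link protein that ties aggrecan to hyaluronan, at 6.32, 6.31 and 6.498 against 0.737, 0.681 and 0.7497 CPM (-2.10). Aggrecan and its link protein thus went in opposite directions. Matrix proteases and inhibitors had 7 higher and 5 lower of 24, again with a median whose sign changed between alternatives. Among the ADAMTS proteases, Adamts5, which cleaves aggrecan, was lower at 158, 194 and 199.9 against 53.05, 53.4 and 51.7 CPM (-1.78), while Adamts12 (1.69) and Adamts6 (1.10) were higher. Serpine2, an inhibitor of thrombin and plasmin, was lower (-1.57). In the list of osteochondrogenic genes 5 were higher and 7 lower of 13: Acan and Sost, the bone-derived Wnt inhibitor sclerostin (0.668, 0.465 and 0.307 against 4.24, 3.26 and 4.998 CPM, log2 1.80), rose, and Comp and Spp1 fell.

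**Figure D3:**
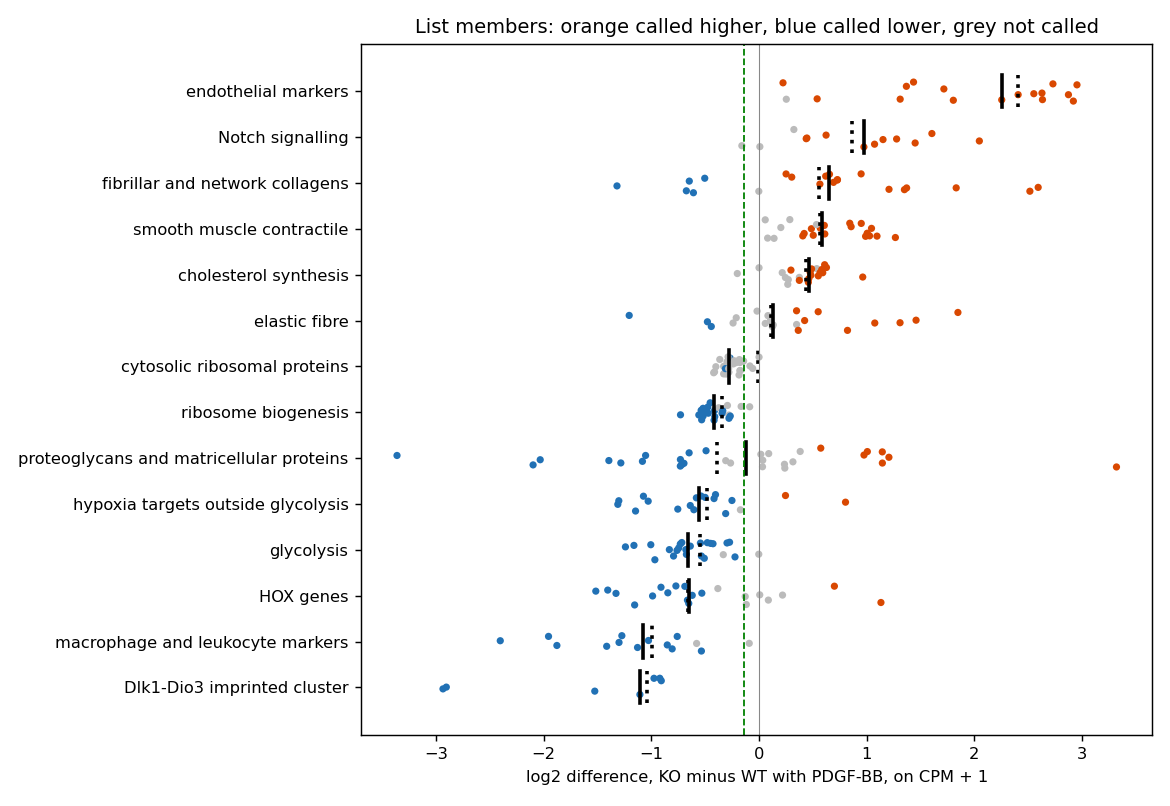
Log2 difference of each tested member, labelled knockout minus wild-type with PDGF-BB on CPM + 1, for 14 gene lists on the y axis, with the list median as a solid black line, the median without wild-type replicate 1 as a dotted line and the median of all genes, -0.144, as a green dashed line. Endothelial markers sit at the right with a median of 2.25, macrophage markers and the Dlk1-Dio3 cluster at the left with medians of -1.08 and -1.11, and the ribosomal protein median moves from -0.28 to -0.01 without that library.

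Glycolysis is the pathway that TIGAR acts on. Of 24 glycolytic genes tested, which include glucose and lactate carriers, 22 were lower in labelled knockout and none higher, beside 26.6% of all genes lower, with a median log2 difference of -0.66. It was 21 of 24 without wild-type replicate 1 and 20 of 24 with TMM scaling. Pfkl, a subunit of phosphofructokinase, the committed step, was at 334, 276 and 253 CPM in the wild-type libraries and at 141, 142 and 143 CPM in labelled knockout (log2 -1.01, SE 0.08, adjusted p = 1.06e-06). Slc16a3, the lactate exporter MCT4, was at 69.6, 56.03 and 57.4 against 26.5, 24.999 and 23.9 CPM (-1.24), Slc16a1, the carrier MCT1, at 44.5, 37.9 and 36.8 against 20.7, 18.3 and 20.4 CPM (-0.97), and Pdk1, the kinase that inhibits pyruvate dehydrogenase, at 96.1, 88.6 and 82.2 against 42.6, 39.7 and 35.4 CPM (-1.16). Wild-type replicate 1 was the highest library for each of these 4 genes, and the other 2 wild-type libraries also lay above all labelled knockout libraries. Hk2, the hexokinase of the first step, was at 67.96, 65.2 and 64.2 against 36.7, 32.7 and 40.4 CPM (-0.83). The 2 not called were the glucose carrier Slc2a3 (log2 -0.33) and Pfkfb4 (-0.002703). Gapdh, at 54.5 ± 5.71 and 40.1 ± 0.667 CPM (-0.43), has many near-identical pseudogenes, so its count is uncertain.

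Of the 8 enzymes tested that make or use fructose bisphosphates, Tigar included, 1 was higher and 4 were lower. The higher one was Tigar. Besides Pfkl, the lower ones named were Pfkfb3, which makes fructose 2,6-bisphosphate, the substrate of TIGAR, at 41.7, 51.6 and 54.1 against 34.1, 31.8 and 33.7 CPM (log2 -0.54), and Pfkp (-0.45). In untreated cells Pfkfb3 was higher in labelled knockout (log2 0.59). Of 14 genes of the pentose phosphate pathway and NADPH supply, 1 was higher and 7 were lower, and with TMM scaling 1 and 3. Mthfd1 was the higher one (0.54), and Mthfd2, a mitochondrial folate enzyme (-0.63), and Idh2, mitochondrial isocitrate dehydrogenase (-0.48), were lower. Pgls, the lactonase of the pentose phosphate pathway, was also lower (-0.42, or -0.22 without wild-type replicate 1). The call for Pgls held in only 10 of 19 alternatives, and another gene on the same strand lies over 20.6% of its exon length.

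Hypoxia targets outside glycolysis were also lower: 15 of 18, beside 26.6% of all genes, with 2 higher and a median of -0.56. Without wild-type replicate 1 it was 16 lower, and with TMM scaling 13. Bnip3, a mitophagy receptor, was at 62.6, 49.8 and 44.999 CPM in wild-type and 20.9, 20.5 and 19.6 CPM in labelled knockout (log2 -1.31, SE 0.12). Higd1a, a mitochondrial protein, was at 135, 90.5 and 73.3 against 36.4, 40.7 and 38.7 CPM (-1.30), the adenylate kinase Ak4 at 60.2, 52.1 and 52.7 against 24.6, 24.5 and 23.7 CPM (-1.15), and Adm, the vasodilator adrenomedullin, at 19.4, 16.7 and 15.1 against 8.89, 6.61 and 7.25 CPM (-1.07). No library of wild-type overlapped labelled knockout in these 4 genes. The 2 that were higher were Ndrg1 (0.80) and Ddit4 (0.25). An annotated antisense exon lies over 22.3% of the exon length of Bnip3 and 22.5% of that of Higd1a.

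The factor HIF binds the core ACGTG or GCGTG. On either strand of the 250 bases upstream of the start, this core was found in 20 of 23 tested glycolytic genes with a RefSeq promoter (87.0%) and in all 14 hypoxia targets with one, beside 41.5% of all 27025 genes and 61.0% of the 10427 tested genes that have one. So short a word is common, and a match says nothing about binding. Stretches of 120 bases are shown for the 3 list members with the largest differences that had a match outside annotated exons, with the cores on both strands in capitals and cores that overlap merged.
Bnip3: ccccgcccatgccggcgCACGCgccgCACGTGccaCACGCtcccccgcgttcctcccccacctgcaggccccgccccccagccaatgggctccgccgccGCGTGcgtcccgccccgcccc
Pdk1: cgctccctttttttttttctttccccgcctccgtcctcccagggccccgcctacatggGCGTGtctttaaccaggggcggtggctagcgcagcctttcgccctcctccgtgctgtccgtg
Adm: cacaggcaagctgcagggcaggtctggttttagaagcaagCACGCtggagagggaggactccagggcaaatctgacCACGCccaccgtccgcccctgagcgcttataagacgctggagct
The stretch of Bnip3 is chr7:138909521-138909640 on the minus strand, that of Pdk1 chr2:71873088-71873207 on the plus strand and that of Adm chr7:110627527-110627646 on the plus strand, all on GRCm38.p6. They hold 5, 1 and 2 matches, in the same order, and all 3 genes were lower in labelled knockout, as given above.

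The medians of respiratory chain and ribosomal protein genes moved with replicate 1 of wild-type. Of 24 respiratory chain genes, 6 were lower, which is near the 26.6% of all genes called lower, and none higher. Their median of -0.25 was -0.05 without that library, when 6 were lower and 2 higher, and with TMM scaling none was called. Sdhb, a subunit of succinate dehydrogenase, was at 86.8, 59.2 and 51.1 CPM against 43.5, 44.5 and 50.98 CPM (log2 -0.46, or -0.25 without wild-type replicate 1), and the complex I subunit Ndufv1 at 76.5, 53.2 and 48.1 against 42.7, 43.8 and 41.04 CPM (-0.44, or -0.25). In both, replicate 1 lay well above the other 2 wild-type libraries. Cytosolic ribosomal proteins had 2 lower of 27 and a median of -0.28, which was -0.01 without that library. Ribosome biogenesis genes, by contrast, had 18 lower and none higher of 23, beside 26.6% of all genes lower (median -0.42), 21 lower without replicate 1 and 16 with TMM scaling. Fbl, the methyltransferase fibrillarin, was at 93.7, 57.96 and 56.5 CPM against 41.5, 37.4 and 42.2 CPM (-0.73), Dkc1, the pseudouridine synthase dyskerin, at 37.2, 31.8 and 27.3 against 22.4, 18.5 and 23.2 CPM (-0.56), and Nop58, a core protein of the same kind of small nucleolar particles, at 125, 106 and 99.6 against 75.5, 71.1 and 80.3 CPM (-0.53). Autophagy and lysosome genes had 1 higher and 5 lower of 22, or 2 and 1 with TMM scaling, and the cathepsin Ctsb differed by -0.29 and the lipidation enzyme Atg7 by -0.29.

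Cholesterol synthesis genes were higher. Of 22 tested, 14 were called higher, beside 10.6% of all genes, and none lower, with a median of 0.47. Without wild-type replicate 1 it was 18 of 22 (11.9% of all genes), and also 18 with TMM scaling (13.6% of all genes). Over the 19 alternatives, 8 to 21 were called higher and 0 to 1 lower. Stard4, a sterol carrier, was at 30.3, 32.6 and 33.9 CPM in wild-type and 50.004, 51.9 and 49.04 CPM in labelled knockout (log2 0.63, SE 0.09, adjusted p = 0.000155). Srebf2, the factor that drives these genes, was at 85.9, 119.97 and 117 against 157, 159.9 and 166 CPM (0.59). Wild-type replicate 1 was the lowest library for both. In the 250 bases upstream, the sterol response element CACCCCAC was found on either strand in 1 of 14 tested members with a promoter (7.14%), in Hmgcs1, beside 2.98% of all genes, so these letters were not a shared feature of the list.

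Stress response lists were mixed. ATF4 targets, genes of amino acid supply, had 4 higher and 9 lower of 22. Vldlr, a lipoprotein receptor, was at 156, 209 and 206 CPM against 77.01, 78.4 and 75.03 CPM (log2 -1.29), and the serine and glycine enzymes Shmt2 (-0.89) and Psat1 (-0.78) and the factor Cebpb (-1.02) were lower. NRF2 targets had 3 higher and 4 lower of 22. Gsta4, a glutathione transferase, rose from 14.6, 9.04 and 6.38 to 27.9, 24.5 and 28.8 CPM (1.42) and Gstm1, another one, fell (-0.71). The ferritin chain Fth1 also fell (-0.79), and the peroxiredoxin Prdx1 did so by -0.53, or -0.26 without wild-type replicate 1. p53 targets had 5 higher and 2 lower of 22, 8 and 4 without wild-type replicate 1 and 8 and 1 with TMM scaling. Gdf15, a stress cytokine, was at 13.6, 8.44 and 7.11 against 18.02, 19.2 and 21.7 CPM (0.99), and Eda2r (0.66) and the antiproliferative gene Btg2 (0.42) were higher while the kinase Plk2 was lower (-0.52).

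Growth factor signalling was tested next. Among PDGF, FGF, EGF and IGF ligands and receptors 7 were higher and 11 lower of 31, or 8 and 8 with TMM scaling. Pdgfb, which codes for the B chain of the added factor, was at 4.25, 3.99 and 4.05 CPM in wild-type and 24.6, 25.6 and 25.2 CPM in labelled knockout (log2 2.36, SE 0.11, adjusted p = 6.97e-09). It is made by endothelial cells, and the endothelial sum moved with it. Nrg1, the ERBB ligand neuregulin, was at 14.1, 18.5 and 20.5 against 49.7, 49.03 and 52.3 CPM (1.47), and the fibroblast growth factors Fgf18 (-1.89) and Fgf10 (-1.24) were lower. Pdgfrb, the receptor for PDGF-BB, was at 867 ± 154 and 852 ± 17.5 CPM (log2 -0.01, adjusted p = 0.948) and was not called, and Pdgfra was lower (-0.92).

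Early response genes of growth factors had 4 higher and 13 lower of 33, 7 and 12 without wild-type replicate 1 and 6 and 10 with TMM scaling. Jun, a subunit of AP-1, was at 261, 223 and 207 CPM against 98.7, 95.5 and 94.3 CPM (log2 -1.25). Klf4, a factor tied to the switch of smooth muscle state, was at 343, 385 and 384 against 162, 161 and 163 CPM (-1.19), and Spred1, an inhibitor of Ras signalling, at 237, 272 and 286 against 136, 128 and 139 CPM (-0.97). Dusp4, a phosphatase of MAP kinases, went the other way, at 24.96, 30.04 and 31.8 against 61.6, 60.5 and 63.97 CPM (1.08). Outside the list Errfi1, an inhibitor of the EGF receptor, was at 176, 189.9 and 193 against 47.4, 44.7 and 51.1 CPM (-1.94).

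Genes of TGF-beta and BMP signalling had 12 higher and 7 lower of 32. Among ligands Bmp6 rose, as given above, and so did Gdf6, from 17.9, 17.02 and 14.1 to 83.6, 91.4 and 88.6 CPM (log2 2.36). The antagonist Chrdl1 fell, and the co-receptor Tgfbr3 went from 67.3, 87.8 and 91.9 to 19.5, 20.1 and 19.1 CPM (-2.01). Of the Wnt genes 11 were higher and 7 lower of 31. The inhibitors Sfrp1 and Sost rose, and Dkk2, another one, did so from 3.705, 4.05 and 3.801 to 13.96, 11.8 and 15.9 CPM (1.61). The amplifier Rspo3, at 20.6, 16.9 and 15.2 against 1.98, 1.99 and 1.31 CPM, and its receptor Lgr5, at 5.83, 8.77 and 9.99 against 0.876, 1.36 and 0.687 CPM (-2.21), fell.

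Of 13 Notch genes tested, 10 rose, beside 10.6% of all genes, and none fell, with a median of 0.97. Without wild-type replicate 1, 10 were higher and 1 lower. Mfng, a glycosyltransferase that modifies Notch receptors, was at 1.03, 1.196 and 0.858 CPM against 7.83, 7.198 and 7.06 CPM (log2 2.05), the receptor Notch4 at 6.68, 6.51 and 7.23 against 22.6, 21.98 and 23.7 CPM (1.60), and the target genes Hey1 at 0.607, 0.532 and 0.429 against 2.72, 3.75 and 3.06 CPM (1.45) and Hey2 at 4.68, 3.39 and 3.68 against 10.7, 11.9 and 9.995 CPM (1.28). Notch4 is known mainly from endothelium, and the endothelial sum moved with this list too.

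Vasoactive and prostanoid signalling had 8 higher and 8 lower of 21. Calcrl, the receptor subunit for adrenomedullin, was at 7.53, 8.37 and 9.13 CPM against 36.3, 37.6 and 35.98 CPM (log2 2.01) and Npr1, the receptor for atrial natriuretic peptide, at 1.09, 1.396 and 3.07 against 12.1, 12.4 and 11.1 CPM (2.23), while Prkg1, the cGMP-dependent kinase, was lower at 41.4, 51.98 and 54.7 against 19.7, 19.2 and 17.7 CPM (-1.33). Adrenomedullin and its receptor thus moved in opposite directions. Ion channel and gap junction genes had 7 higher and 8 lower of 25. Gja4, connexin 37, was at 3.28, 2.06 and 2.45 against 21.6, 22.2 and 20.4 CPM (2.65), the cation channel Trpc6 at 1.21, 0.864 and 1.23 against 8.02, 7.198 and 7.497 CPM (2.03), and the calcium channel Cacna1g at 0.911, 2.26 and 1.59 against 7.097, 8.46 and 8.25 CPM (1.82). The calcium-activated potassium channel Kcnn4 fell from 22.9, 17.9 and 16.5 to 5.35, 5.01 and 6.12 CPM (-1.62). Retinoic acid genes had 5 higher and 7 lower of 13, with the synthesizing enzyme Aldh1a3 (1.06) higher and Dhrs3 (-0.81) and Crabp2 (-0.82) lower.

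HOX genes, which mark position along the body axis, were mostly lower. Of 21 tested, 13 were lower, beside 26.6% of all genes (15.1% with TMM scaling), and 2 higher, with the same counts without wild-type replicate 1 and with TMM scaling. Hoxa5 was at 69.2, 54.04 and 49.4 CPM against 18.1, 22.1 and 17.9 CPM (log2 -1.52, SE 0.11), Hoxb5 at 14.3, 13.03 and 13.7 against 4.79, 4.52 and 4.31 CPM (-1.41), Hoxb6 at 27.6, 20.01 and 19.7 against 8.53, 8.56 and 7.62 CPM (-1.33) and Hoxb8 at 8.38, 5.32 and 6.19 against 2.26, 2.38 and 2.499 CPM (-1.16). The 2 that were higher, Hoxa9 (1.13) and Hoxa10 (0.70), are posterior members of the HOXA cluster. Among 24 patterning factors of vessel progenitors, 9 were higher and 7 lower. Isl1, a factor of the second heart field, was at 0.182, 0.199 and 0.429 CPM against 5.58, 3.696 and 3.69 CPM (2.05), Barx1 at 0.364, 0.133 and 0.613 against 3.18, 4.09 and 4.87 CPM (1.88) and Dlx6, a factor of neural crest, at 3.58, 1.46 and 1.59 against 9.95, 10.5 and 8.81 CPM (1.80), while Foxd1 fell from 24.4, 22.7 and 23.4 to 6.73, 7.296 and 5.997 CPM (-1.68).

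All 7 tested genes of the imprinted Dlk1-Dio3 cluster on chromosome 12 were lower, with a median of -1.11, and they were also 7 of 7 without wild-type replicate 1, with TMM scaling and in untreated cells. Dlk1, a non-canonical Notch ligand expressed from the paternal copy, was at 28.1, 22.5 and 20.2 CPM in wild-type and 3.09, 1.56 and 2.31 CPM in labelled knockout (log2 -2.90, SE 0.16, adjusted p = 2.64e-08). Dio3, a thyroid hormone-inactivating deiodinase, was at 20.95, 14.02 and 13.5 against 1.11, 1.46 and 1.06 CPM (-2.94), the maternally expressed noncoding RNA gene Mirg at 26.1, 22.997 and 25.5 against 7.83, 7.54 and 8.56 CPM (-1.53) and Rtl1 at 2.92, 2.06 and 2.21 against 0.691, 0.584 and 0.437 CPM (-1.11). Genes expressed from either parental copy thus fell. Of 22 other imprinted genes, 3 were higher and 7 lower, or 4 and 2 with TMM scaling, with Peg10 (1.11) and Plagl1 (0.75) higher and the cell cycle inhibitor Cdkn1c (-0.92) lower. Among 15 tested genes near Tigar on chromosome 6, 2 were higher and 6 lower, or 3 and 3 with TMM scaling. They include Vwf (log2 2.73), the channel gene Ano2 (-1.03), Fkbp4 (-0.63) and Cracr2a (-0.59).

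Immune gene lists were divided as well. Inflammatory cytokines and chemokines had 9 higher and 5 lower of 26. Il6, interleukin 6, was at 2.25, 1.73 and 1.29 CPM against 11.5, 12.1 and 12.6 CPM (log2 2.26) and Cxcl12, a chemokine for stem cells and lymphocytes, at 989.9, 998 and 944 against 2641, 2657 and 2575 CPM (1.42), and the adhesion molecule Icam1 (1.16) and Cxcl5 (1.12) were higher too. Complement genes had 4 higher and 11 lower of 18. C3, the central component, was at 67.7, 98.4 and 95.4 against 28.3, 26.9 and 22.6 CPM (-1.70), and C1qb at 12.5, 9.505 and 7.05 against 1.797, 1.61 and 1.999 CPM (-1.90). C1q is known as a macrophage product. C1qa is itself among the macrophage markers listed, so the macrophage sum, which was also lower, is not separate from it. Interferon-stimulated genes had 4 higher and 4 lower of 24, with Ifi44 (0.61) and Oasl2 (0.60) higher and Isg20 (-0.75) and Irf1 (-0.60) lower. MHC and antigen presentation genes had 4 lower and none higher of 14, near the 26.6% of all genes called lower, or 2 lower and 3 higher without wild-type replicate 1, among them H2-K1 (-0.55) and H2-D1 (-0.38), which are close copies of each other.

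Few G2/M genes were called. Of 23, 3 were called lower and none higher: Cdc20 (-0.70), Cdk1 (-0.61) and Cenpa (-0.56). All 23 had a negative difference, from -0.70 to -0.09. In 16 of them all labelled knockout libraries lay below all wild-type ones, beside 35.9% of all genes. The call for Cdc20 was lost without wild-type replicate 1 (adjusted p = 0.0643). In untreated cells all 23 were lower, with a median of -1.19 beside -0.42 with PDGF-BB, but the interaction was called for none of the 23, so a difference between the treatments was not shown. Without wild-type replicate 1 it was called for 6, all positive, beside 5.71% of all genes called positive in that analysis. Of 24 G1/S and replication genes, 1 was higher, the ribonucleotide reductase subunit Rrm1 (0.49), and 5 were lower, with Pcna at 52.8, 37.7 and 37.3 CPM against 31.5, 30.8 and 32.3 CPM (-0.40, or -0.24 without wild-type replicate 1). With TMM scaling 3 were higher and none lower. Among 15 inhibitors and senescence genes, 4 were higher and 7 lower. The chromatin proteins Hmga2 (-1.25) and Hmga1 (-1.04) were among the lower ones.

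The untreated comparison shares no library with the treated one, but both take their spread from 1 fit to all 12 libraries, and nothing in the labels tells if cultures or animals are shared. Untreated, 4823 genes were called (34% of those tested), 1300 (9.15%) higher and 3523 (24.8%) lower. Of these, 2880 were called in the same direction in both, which is 54.5% of the calls with PDGF-BB and 59.7% of those without, and 75 in opposite directions. Across genes the Spearman correlation of the 2 differences was 0.56, where genes are not independent replicates. Of the 671 genes with at least a 2-fold difference with PDGF-BB, 613 (91.4%) were called in the same direction without it. The endothelial list (15 of 17 higher), the macrophage list (13 of 14 lower), HOX genes (12 of 21 lower) and collagens (13 of 21 higher, 5 lower) had counts without PDGF-BB close to those with it.

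The interaction, which is the difference with PDGF-BB minus the difference without it, was called for 557 genes (3.92%), 319 positive (2.25%) and 238 negative (1.68%), and for 1554 (10.9%) without wild-type replicate 1. The larger direction depended on scaling: 261 were positive and 298 negative with TMM scaling, 228 and 268 with edgeR, 409 and 496 with DESeq2, and 462 and 666 with the exon length trend removed. It was called for 374 genes that were also called with PDGF-BB, of which 178 were higher and 196 lower there. Glycolysis had 11 negative and 1 positive of 24, and hypoxia targets 7 negative of 18. Pfkl had log2 differences of -1.01 with PDGF-BB and -0.16 without (interaction -0.85, SE 0.12, adjusted p = 0.00176). Its means without PDGF-BB were 84.3 ± 2.88 and 75.4 ± 2.15 CPM, so the labels were near each other in untreated cells and apart in treated ones. Slc16a3 behaved alike, with means of 9.34 ± 0.699 and 8.51 ± 1.49 CPM untreated, and so did Jun, with 65.6 ± 5.395 and 59.7 ± 4.56 CPM. Hk2 was higher in untreated labelled knockout (log2 0.53) and lower with PDGF-BB (-0.83), with an interaction of -1.36. ATF4 targets had 6 negative of 22. Mthfd2 was at 10.7 ± 1.63 CPM in untreated wild-type and 28.6 ± 6.87 CPM in untreated labelled knockout (1.32), against -0.63 with PDGF-BB (interaction -1.96).

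Among genes also called with PDGF-BB and at a mean of at least 5 CPM in the higher treated group, the most negative interaction was in Nptx1, a neuronal pentraxin. It was at 108, 142 and 139 CPM in wild-type and 29.1, 30.5 and 33.9 CPM in labelled knockout with PDGF-BB (log2 -2.01), and at 4.26 ± 0.209 and 7.65 ± 1.39 CPM without (log2 0.71), an interaction of -2.72 (SE 0.18, adjusted p = 1.35e-05). Rgs2 was at 214, 136 and 126 against 19.3, 18.3 and 20.5 CPM with PDGF-BB, with wild-type replicate 1 the highest, and its interaction was -1.84. It was also lower in untreated labelled knockout, at 16.7 ± 0.545 against 7.30 ± 0.0393 CPM (log2 -1.09). Errfi1 (-1.42) and the small membrane protein Mall (-1.35) complete the 6 most negative at that level with Hk2 and Mthfd2. Below it, Tspan11 (-1.52) and Sost (-1.44) were also called. The most positive at that level were Dkk2 (1.73), Nrg1 (1.69), the exchange factor Fgd3 (1.54), Hey2 (1.48), Pdzd2 (1.41) and the netrin receptor Unc5c (1.39). Nrg1 was at 106 ± 10.5 and 91.3 ± 14.4 CPM untreated and at 17.7 ± 3.301 and 50.3 ± 1.72 CPM (mean ± SD, n = 3) with PDGF-BB. Its mean was thus lower in treated than in untreated cells under both labels, and by less in labelled knockout. Hey2 showed the same order, from 39.8 ± 0.765 and 34.8 ± 6.75 CPM untreated to 3.91 ± 0.675 and 10.9 ± 0.972 CPM.

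**Figure D4:**
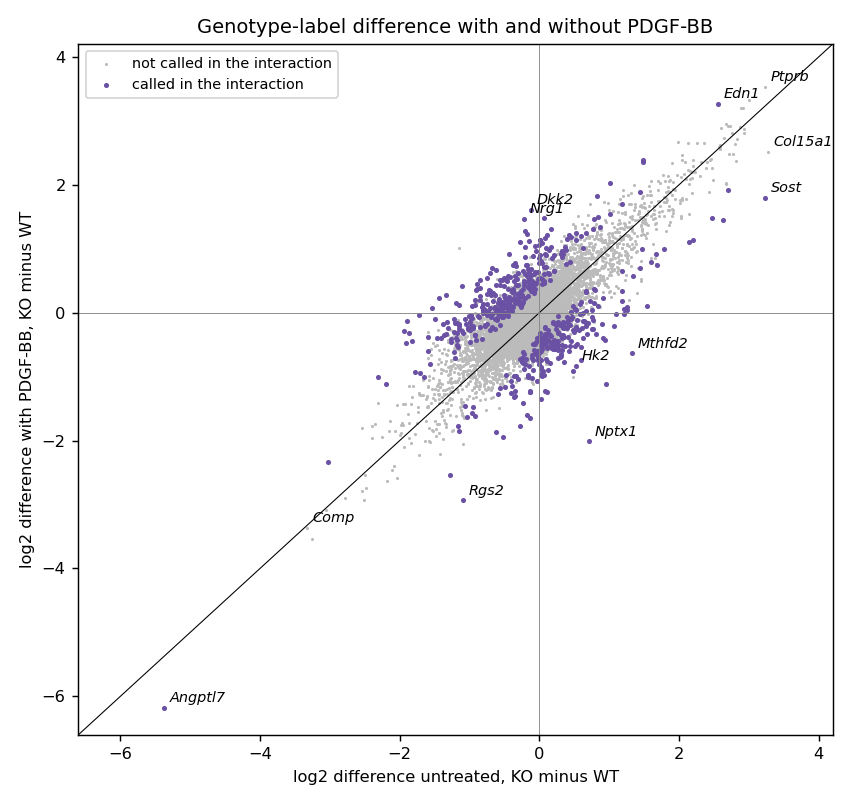
Log2 difference between the labels with PDGF-BB (y axis) against that without it (x axis), labelled knockout minus wild-type, for the 14202 genes, each a point, with the line of equality. Genes called in the interaction are purple. Comp and Ptprb lie near the line, Angptl7 and Edn1 lie farther from 0 with PDGF-BB than without it and are purple, while Nptx1, Mthfd2 and Hk2 lie right of 0 and below 0, and Dkk2 and Nrg1 above 0 near an untreated difference of 0.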

How the data were processed

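The authors deposited CPM (reads per 1000000 counted reads) in a table that bears FPKM in its name: each library sums to 1000000, and 100% of values are whole reads within 0.001 read when scaled by the library total. HISAT2, HTSeq and mm10 are named in the submitters' processing notes, without versions or strand setting, and GRCm38.p6 in the file headers. Libraries are stranded poly(A), per the labels' protocols.

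Genes with at least 1 CPM in at least 3 of 12 libraries (14202) were tested by limma-trend (R 4.3.3, limma 3.58.1) after a log2(CPM + 1) transform, fitting the 4 group means to all 12 libraries, 2-sided, with Benjamini-Hochberg adjustment over these genes. A call is an adjusted p under 0.05. Log2 differences, labelled knockout minus wild-type, are on the CPM + 1 scale and understate those of low genes. Alternatives were recovered reads in DESeq2 1.42.0 and in edgeR 4.0.16, other scalings, pseudocounts and filters, library weights, a replicate block, removal of the exon length trend and each library left out. The procedure was tested on simulated data.

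The 47 gene lists (1031 of 1038 symbols matched) and all members were chosen with earlier results of these data known, so counts over lists carry no test. Named genes are Tigar, the 15 largest rises and falls called with and without wild-type replicate 1 (libraries not overlapping, mean of at least 5 CPM in the higher group, no predicted gene models), up to 4 called members per list, the 6 most positive and 6 most negative interactions among genes called with PDGF-BB at the same level, up to 6 genes present under 1 label only, and members needed to check cell type. Other members were named after their values were seen. Some genes that this rule names are not reported here. Chromosome positions are from GENCODE M21, and promoter sequences from RefSeq on GRCm38.p6.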

Additional observations from a re-analysis of the deposited data

Results flagged for a closer look

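The results in this section are named genes whose difference between the genotype labels was not the same with and without PDGF-BB, by the test of that difference itself in limma (the interaction, on the log2(CPM + 1) scale, adjusted p under 0.05). They are 35 of the 196 genes named, 25 negative and 10 positive, beside 3.92% of all genes tested (2.25% positive and 1.68% negative). Some genes were named because of this very call, so these counts are not a result about the named genes. All 35 were also called in the same direction without wild-type replicate 1. Values are the difference with PDGF-BB minus the difference without it.

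Genes of glycolysis and hypoxia had negative values: Hk2 -1.36, Pfkfb3 -1.14, Slc16a3 -1.11, Higd1a -0.96, Bnip3 -0.95, Pfkl -0.85, Ak4 -0.76 and Pdk1 -0.67. So had Ndufa4l2 (-0.92), the glycogen gene Ppp1r3c (-1.26) and the folate and serine genes Mthfd2 (-1.96) and Shmt2 (-1.01). Regulators of signalling and transcription with negative values were Rgs2 (-1.84), Errfi1 (-1.42), Jun (-1.11), Hmga1 (-0.73), Pparg (-0.64) and Spred1 (-0.49). Nptx1 (-2.72), Tspan11 (-1.52), Mall (-1.35) and Angptl7 (-0.80) were also negative. Like Nptx1, Hk2 and Mthfd2, both Pfkfb3 and Mall were higher in untreated labelled knockout (log2 0.59 and 0.60) and lower with PDGF-BB (-0.54 and -0.75). In Sost (-1.44), Hey1 (-1.19) and Peg10 (-1.03), which were higher in labelled knockout under both treatments, the negative value means a smaller difference with PDGF-BB.

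Positive values were found for Dkk2 (1.73), Nrg1 (1.69), Fgd3 (1.54), Hey2 (1.48), Pdzd2 (1.41), Unc5c (1.39), Fbn2 (1.15), Edn1 (0.71), Lmod1 (0.67) and Btg2 (0.57). Fgd3 was lower in untreated labelled knockout (log2 -1.12) and higher with PDGF-BB (0.42).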

How the results depend on the processing

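The count of genes called with PDGF-BB was 5284. It was 10265 with array weights, whose estimation stopped before its convergence tolerance, and 3438 with only the compared groups in the fit, and it ran from 3914 to 6216 when each library was left out in turn. With array weights 8006 genes were called in untreated cells and 4720 in the interaction. The interaction, 557 genes, gave 905 with DESeq2, 1128 with the exon length trend removed and 371 without a filter. With each library left out it ran from 274 to 1554: 1554 without replicate 1 and 907 without replicate 3 of treated wild-type, 284, 274 and 314 without replicates 1, 2 and 3 of treated labelled knockout, 276, 357 and 320 without replicates 1, 2 and 3 of untreated wild-type, and 337 and 328 without replicates 2 and 3 of untreated labelled knockout. The cause was not tested. With fewer groups or libraries the fit has fewer samples, and counts with a library left out lay on both sides of that of the full fit. The larger direction among the calls depended on scaling, as given above. Of the 196 named genes, 169 were called with PDGF-BB in the same direction in every alternative that tested them, and 27 lost the call in at least 1.

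Replicate numbers are shared between the groups. Same-numbered libraries deviated from their group means with correlations of 0.008, 0.012 and -0.067 between the treated groups. Over all pairs of groups the correlations ran from -0.231 to 0.175. Such values cannot tell if same-numbered libraries share an animal or culture, and the main fit does not pair them. With a replicate block, 4938 genes were called with PDGF-BB, 4488 untreated and 417 in the interaction.

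One read corresponded to 0.0461 to 0.0669 CPM, so genes near 1 CPM rest on few reads. An annotated antisense exon lies over more than 10% of the exon length in 14 of the 196 named genes. Besides those given above, they include Cebpb (20.7%), Penk (14.3%), Icam1 (11.7%) and Npr1 (11.7%).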
